A study of Mus musculus with 6 samples.

Results

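Histone chaperones bind free histones and hand them to DNA or take them away from it. In the fertilized egg they exchange the protamines of the sperm for histones, load histone H3.3 outside replication and load replication-coupled H3 behind the replication fork. Because the embryo does this before and while its own genome is switched on, it starts with chaperone RNA and protein laid down in the egg. The 10 genes described here are the nucleoplasmin family (Npm1, Npm2 and Npm3), the H3.3 chaperone Hira, the H3-H4 carriers Asf1a and Asf1b, the Chaf1a and Chaf1b subunits of the replication-coupled chaperone CAF-1, and the partners Daxx and Atrx. They were found by gene symbol among the 55549 rows of each gene table, and all 10 were present and passed the filter on low counts.

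The study sequenced polyadenylated RNA of mouse embryos at the early 2-cell stage, in 3 control libraries and 3 libraries of embryos that had been moved at 4 h after fertilization into medium with 40 uM ethylparaben (EtP), a preservative ester of 4-hydroxybenzoic acid. The series states that development mostly halted there under exposure, and sets the transcripts of exposed and control embryos side by side. The labels used here give no mouse strain, no solvent for the controls, no hour of collection and no number of embryos per library, and they leave unsaid if the replicates are separate cultures. All p-values therefore rest on library-to-library spread, which may be technical. In pooled material, fewer embryos or cells and less RNA per cell cannot be told apart.

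Library totals were 11173295 to 14737152 estimated counts. Rows with at least 1 count numbered 25971 to 26103 in control and 19321 to 19713 in EtP libraries. Egg and 2-cell markers were detected, 8 of 8, with a summed level of 3284 to 3918 TPM (transcript abundance scaled for length and depth) in control and 6613 to 7720 TPM in EtP. They did not move together. Bmp15, Gdf9, Nlrp5, Padi6 and Ooep were higher in each EtP library than in any control, and Zp3 overlapped. The 2-cell genes were lower: Zfp352 went from 62.4, 52.6 and 81.7 TPM to 0.09, 0.1 and 0.13 TPM. Zscan4d went from 42.8, 47.3 and 56.5 TPM to 2.85, 2.66 and 3.68 TPM. Markers of cumulus and granulosa cells summed to 19.04 to 27.2 TPM in control and 9.31 to 12.5 TPM in EtP, with Amh and Ptx3 at 0 in both groups and Foxl2, Inha and Tnfaip6 also at 0 in EtP. Sperm markers summed to 23.4 to 35.5 and 6.16 to 7.54 TPM, with Smcp and Tnp1 at 0 in both groups and Prm1 also in EtP. Trophectoderm markers summed to 15.9 to 21.5 TPM in control and to at most 12.7 TPM in EtP, with Cdx2 at 0 in EtP. In every library the largest terms of these sums were Cyp19a1 (cumulus and granulosa), Prm2 (sperm) and Gata3 (trophectoderm). Cyp19a1 had 11.3 to 21.3 TPM in control and 6.79 to 9.52 TPM in EtP. Prm2 had 20.45 to 30.1 and 4.9 to 6.41 TPM, and Gata3 had 9.48 to 11.1 and 7.72 to 9.83 TPM, with overlap. The part of these shifts in the results below was not tested.

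Transcript structure matters for the reading of 2 members, and their sequences are therefore shown first. Npm2, the egg's own nucleoplasmin, lies on chromosome 14 from 70647302 to 70659244 of mm10, on the minus strand, and the tables list 2 transcripts for it. Npm2-201 has 997 bases in 9 exons and encodes the protein. Npm2-202 has 649 bases in 6 exons, is annotated as subject to non-stop decay, starts at another first exon of 39 bases and lacks the last 3 exons of Npm2-201. The stretch below runs 5′ to 3′ along Npm2-201 from GENCODE M21. Its capitals mark the 117 coding bases of those last exons, which lie between 70647508 and 70648085 and which Npm2-202 lacks, after 30 bases that both transcripts hold.
Npm2-201: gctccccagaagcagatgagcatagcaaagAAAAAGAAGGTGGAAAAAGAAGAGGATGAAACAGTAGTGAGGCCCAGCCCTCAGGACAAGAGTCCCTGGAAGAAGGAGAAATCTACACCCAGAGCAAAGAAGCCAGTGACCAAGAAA

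Npm1, the abundant nucleolar nucleoplasmin, has processed pseudogenes that are hard to tell from it. Of all loci annotated in GENCODE M21, 4 processed pseudogenes (Gm14681, Gm5611, Gm6477 and Gm9118) matched Npm1-201 over at least 200 bases at 95% identity or more. The start of the Npm1 coding sequence, on the minus strand of chromosome 11 between 33161566 and 33162979 of mm10 and spread over several exons, is shown beside the same stretch of Gm9118, the pseudogene with the most counts, on the plus strand of chromosome 10 from 56497341 to 56497460. Capitals mark the 1 base of 120 that differs.
Npm1-201: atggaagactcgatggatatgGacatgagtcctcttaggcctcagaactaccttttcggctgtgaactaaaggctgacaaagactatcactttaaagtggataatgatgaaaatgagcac
Gm9118: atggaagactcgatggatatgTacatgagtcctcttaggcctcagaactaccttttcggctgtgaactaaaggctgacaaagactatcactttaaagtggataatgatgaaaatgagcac

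The members spanned almost 3 orders of magnitude in length-scaled level. In control libraries Npm1 had 2705 ± 545 TPM, Npm2 456 ± 82.1, Asf1a 323 ± 17.6, Asf1b 284 ± 59.6 and Atrx 161 ± 48.9 TPM (mean ± SD, n = 3). Chaf1a followed with 28.9 ± 15.4 TPM, Daxx with 16.4 ± 0.979, Npm3 with 11.3 ± 0.735, Chaf1b with 9.85 ± 1.95 and Hira with 4.27 ± 1.75 TPM. Among neighbours in this order, Asf1a and Asf1b, Chaf1a and Daxx, and Npm3 and Chaf1b overlapped in their control libraries. In EtP libraries Atrx (253 ± 73.0 TPM) stood above Asf1b (215 ± 51.3 TPM), with overlap, while the rest of the order by mean was as in control. The sum over the 10 genes was 3569 to 4557 TPM in control and 6048 to 6578 TPM in EtP, and Npm1 made up 62.5% to 72.4% and 72.8% to 75.2% of it.

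**Figure D1:**
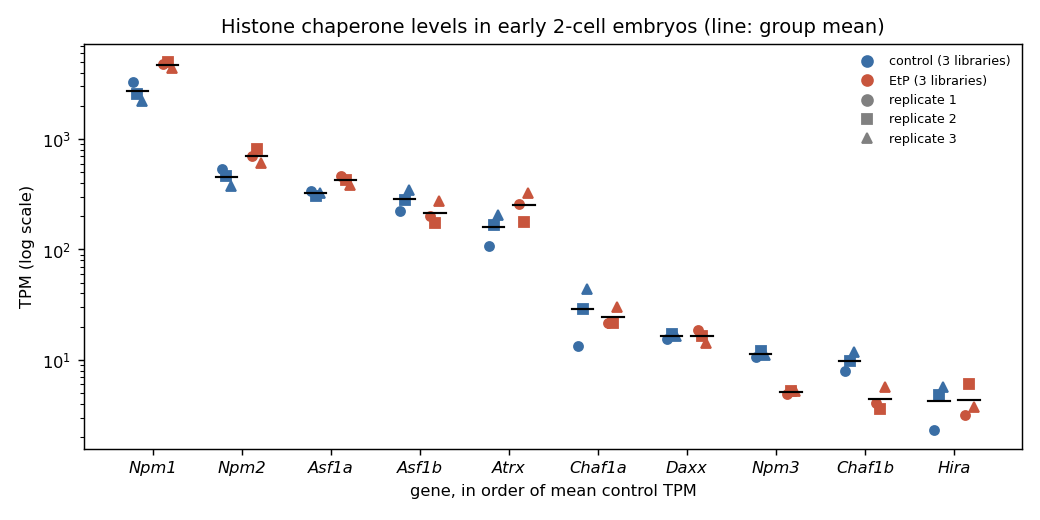
TPM of the 10 histone chaperones in each of the 3 control and 3 EtP libraries, on a log scale, with genes in order of mean control level, markers by replicate and lines at group means. Npm1 stands at 2231 TPM or more in every library and Hira at or below 6.04 TPM, and the groups do not overlap for Npm1, Npm2, Asf1a, Npm3 and Chaf1b.

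Between EtP and control, 5 of the 10 members were higher and 0 lower by edgeR's quasi-likelihood test with TMM scaling (Benjamini-Hochberg adjusted p below 0.05 over 14373 tested genes), where 12.5% of all tested genes were higher and 18.1% lower. The higher ones were Npm1, Npm2, Asf1a, Daxx and Atrx. No member was lower at an unadjusted p below 0.05 either, by edgeR, DESeq2 or limma-voom. DESeq2 also called 5 members higher, beside 16.0% of all genes higher and 16.4% lower, and limma-voom called 5, beside 12.6% and 17.1%. The median log2 fold change of the 10 was 0.79, beside -0.19 for all tested genes. These calls depend on scaling. When libraries were scaled by their totals only, the all-gene median shifted by -0.73 (log2), and 0 members were higher by edgeR (1 at an unadjusted p below 0.05) and 2, Npm3 and Chaf1b, were lower, beside 3.79% and 53.0% of all genes. On the deposited TPM, tested as log2(TPM + 1) with limma-trend, 2 members were higher (Npm1 and Npm2) and the same 2 lower, beside 4.83% and 42.9% of all genes. Without control replicate 2, and likewise without EtP replicate 1, only Npm1 and Atrx were called in the TMM fit. In counts scaled to the TMM-adjusted library size (CPM), 5 members were higher and 2 lower with no overlap between groups, beside 19.0% and 27.9% of all tested genes. In TPM 3 were higher and 2 lower without overlap, beside 6.74% and 50.4%. Directions below are relative to TMM scaling.

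**Figure D2:**
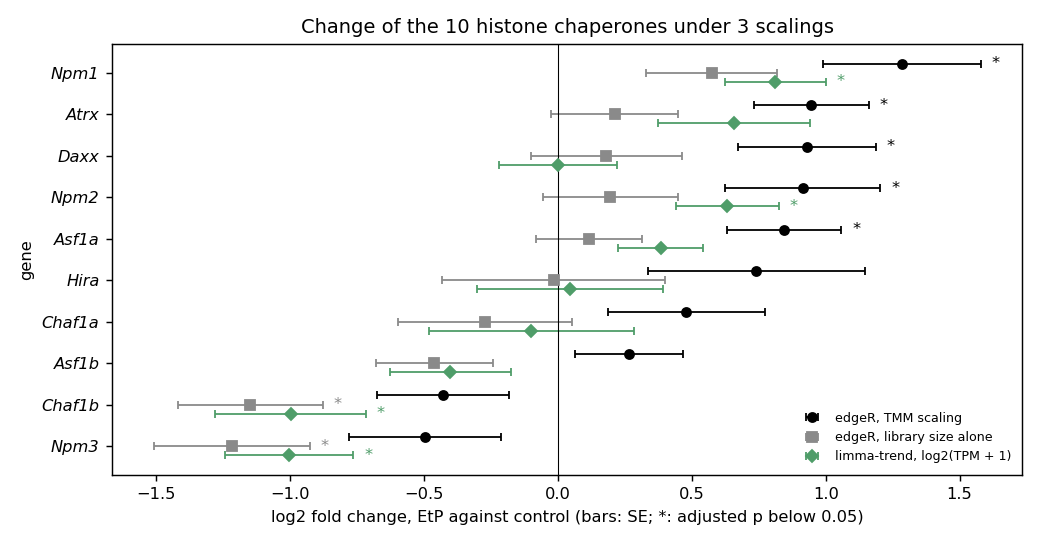
Log2 fold change with its SE for each member, EtP against control, in the edgeR fit with TMM scaling, in the edgeR fit with library size alone and in limma-trend on log2(TPM + 1); asterisks mark adjusted p below 0.05. Npm3 and Chaf1b lie lowest and Npm1 highest in all 3, while Hira, Asf1b and Chaf1a lie on either side of 0 depending on scaling.

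Npm1 (chr11:33152287-33163206, minus strand, mm10 as for all positions here) rose in EtP embryos. It had 2574, 1505 and 1146 CPM in control replicates 1 to 3 and 4502, 4641 and 3590 CPM in the EtP replicates. Each EtP library was above each control library, although control replicate 1 was well above the other controls. The increase was 2.44-fold (log2 fold change 1.28 ± 0.30 SE, edgeR adjusted p = 0.00841), and it passed without each library in turn (edgeR adjusted p = 5.1e-05 to 0.0451) but not with library size alone (0.57, adjusted p = 0.0642). In TPM it went from 3300.5, 2585 and 2231 to 4734, 4947 and 4405, again with no overlap.

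Counts of the Npm1 pseudogenes moved in the same direction. Together the 4 loci held 29.0% ± 2.28 of the number of Npm1 counts in control and 35.8% ± 0.904 in EtP (mean ± SD, n = 3; exact two-sided permutation p = 0.1, the smallest that 3 against 3 allows). Gm9118 had 324 ± 124 CPM in control and 1016 ± 184 CPM in EtP. Because the estimated counts share ambiguous fragments between near-identical loci, the split between Npm1 and these copies is uncertain. With the 5 loci summed into 1 row, the log2 fold change was 1.37 ± 0.29 (edgeR adjusted p = 0.0055).

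Npm2 rose in the TMM fit, with a call that was less stable. This egg-specific chaperone, needed for chromatin organisation of the mouse egg and zygote, had 340, 232 and 160 CPM in the control replicates and 506, 525 and 349 CPM in the EtP replicates. The groups did not overlap, but the highest control and the lowest EtP library were close. The increase was 1.88-fold (log2 fold change 0.91 ± 0.29, edgeR adjusted p = 0.0356). Npm2 no longer passed when control replicate 2 (adjusted p = 0.107), control replicate 3 (0.0625), EtP replicate 1 (0.107) or EtP replicate 2 (0.111) was left out, with upper-quartile scaling (0.0538), among genes with at least 10 CPM in 3 libraries (0.11) and with library size alone (0.20, adjusted p = 0.516). In TPM it went from 536, 460 and 372 to 702, 805 and 606, without overlap.

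Part of the TPM difference of Npm2 goes with transcript length, which the tables give per library. For genes with 1 transcript this value was the same in all libraries (34432 of 34432 genes), and for genes with several it lay within the range of their transcripts (20340 of 20340). The mean transcript length of Npm2 was 984, 971 and 966 bases in control and 825, 770 and 807 bases in EtP, against 997 and 649 bases for its 2 transcripts. All EtP values lay below all controls, by 173 bases on average (exact permutation p = 0.1, the smallest possible; adjusted p = 0.333 over the 10 members).

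If the deposited length is the abundance-weighted mean of both transcripts, Npm2-202 made up 3.85%, 7.54% and 8.85% of Npm2 transcripts in control and 49.4%, 65.3% and 54.5% in EtP. On the same assumption the full-length Npm2-201, which holds the capitals printed above, was at 427 ± 88.2 TPM in control and 303 ± 45.1 TPM in EtP, with overlap (exact permutation p = 0.2), while Npm2-202 went from 29.4 ± 7.65 to 401 ± 108 TPM without overlap (exact permutation p = 0.1). The higher gene-level TPM of Npm2 in EtP is then carried by the transcript without the last 3 exons. These TPM values leave out the TMM factors, which were higher in every control library than in any EtP library. The lower mean of Npm2-201 in EtP therefore need not hold under TMM scaling, where the split by transcript was not tested. Fewer fragments over the last exons and more over the other first exon of Npm2-202 cannot be told apart from a gene table. All 39 bases of that first exon are also exonic in the upstream neighbour Xpo7 on the same strand, and Xpo7 had 69.7 ± 23.2 CPM in control and 54.0 ± 3.34 CPM in EtP, with overlap (edgeR adjusted p = 0.327).

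Among the other members, Npm1 and Atrx also had shorter means in EtP without overlap. Npm1 went from 1181, 1100 and 1126 to 1051, 1053 and 1080 bases. Atrx went from 2073, 2046 and 2082 to 1476, 1830 and 1594 bases, far below its longest annotated transcript of 10275 bases in every library. Asf1a averaged 1100 ± 60.6 bases in control and 977 ± 49.5 in EtP with overlap, and the other 6 members overlapped as well. Of 10998 tested genes with several transcripts whose mean length varied between libraries, 10.7% were shorter in EtP without overlap and 11.5% longer, and 3 of the 10 members were shorter and 0 longer. No member passed adjustment, since 3 against 3 cannot go below 0.1.

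**Figure D3:**
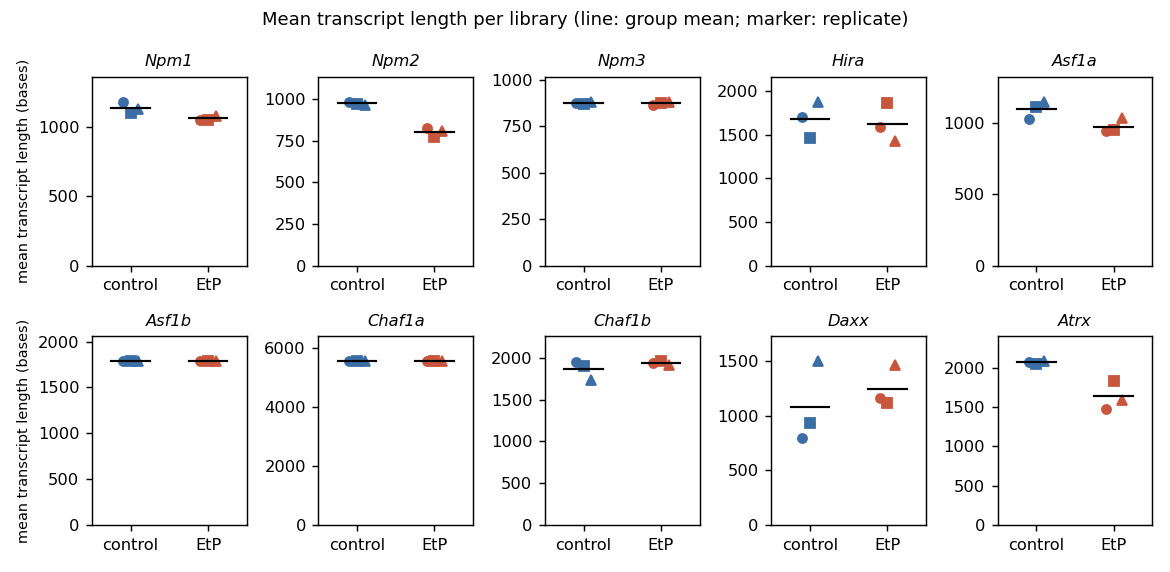
Mean transcript length in bases of each member in the 3 control and 3 EtP libraries, with lines at group means. The EtP libraries of Npm1, Npm2 and Atrx lie below all controls, and for Npm2 they lie between 770 and 825 bases.

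Npm3 (chr19:45747734-45749591, minus strand), the small nucleoplasmin that binds Npm1, went against Npm1 and Npm2. It had 5.94, 5.39 and 4.35 CPM in control and 3.76, 3.98 and 3.40 CPM in EtP. The groups did not overlap, yet the log2 fold change of -0.50 ± 0.28 did not pass (edgeR adjusted p = 0.211). With library size alone it was -1.22 (adjusted p = 0.00531), and in TPM Npm3 went from 10.7, 12.1 and 11.2 to 4.94, 5.21 and 5.28, lower by limma-trend (adjusted p = 0.00827). It has 1 pseudogene at 95% identity or more, Npm3-ps1, which had at most 6.69 counts in any library.

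Ratios of 2 genes within a library do not depend on library scaling. The log2 ratio of Npm3 to Npm1 was -7.88 ± 0.338 in control and -9.83 ± 0.112 in EtP (log2 TPM ratio, mean ± SD, n = 3), a difference of -1.95 with no overlap (exact permutation p = 0.1; adjusted p = 0.24 over 6 ratios). Npm2 against Npm1 was -2.57 ± 0.068 and -2.74 ± 0.121, which overlapped (exact permutation p = 0.2, adjusted p = 0.24). On rounded counts, which leave transcript length out, this ratio differed by -0.40 without overlap (exact permutation p = 0.1, adjusted p = 0.2). No ratio can pass 0.05 at this size. How many ratios of other gene pairs would separate was not tested. Among single genes in TPM, 6.74% were higher and 50.4% lower in EtP without overlap.

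Asf1a rose, and its paralog Asf1b was not called. Both carry H3-H4 to the downstream chaperones, Asf1a working with HIRA and Asf1b mainly in dividing cells. Asf1a (chr10:53596757-53609225, plus strand) had 226, 179 and 172 CPM in control and 387, 355 and 296 CPM in EtP, with a clear gap between groups. It was 1.80-fold higher (log2 fold change 0.85 ± 0.21, edgeR adjusted p = 0.0129), a call lost without control replicate 2 (adjusted p = 0.0594), without EtP replicate 1 (0.0641), with library size alone (0.12, adjusted p = 0.626) and in log2(TPM + 1) (0.38, adjusted p = 0.0703). In TPM it was at 338, 303 and 327 in control and 459, 424 and 382 in EtP.

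Asf1b (chr8:83955507-83970197, plus strand) had 275, 281 and 295 CPM in control and 343, 290 and 390 CPM in EtP. EtP replicate 2 fell among the controls, and the log2 fold change of 0.27 ± 0.20 did not pass (edgeR adjusted p = 0.342); it was -0.46 with library size alone. The log2 TPM ratio of Asf1b to Asf1a was -0.21 ± 0.344 in control and -0.99 ± 0.439 in EtP and overlapped (exact permutation p = 0.2, adjusted p = 0.24). EtP replicate 3, at -0.49, lay within the control range. The library preparation does not mark strand, and 68.8% of the bases of Asf1a-201 lie in exons of Mcm9 on the other strand. Summed with Mcm9, which had 22.8 ± 5.37 and 25.8 ± 3.29 CPM, Asf1a was still higher (0.79 ± 0.20, edgeR adjusted p = 0.0147).

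Neither of the CAF-1 subunits Chaf1a and Chaf1b was called in the TMM fit. Chaf1a (chr17:56040439-56072289, plus strand), the large subunit, had 53.2, 94.5 and 124 CPM in control and 119, 117 and 143 CPM in EtP. Control replicate 1 was the lowest library by far, and control replicate 3 fell among the EtP libraries. The log2 fold change was 0.48 ± 0.29 (edgeR adjusted p = 0.237), and without control replicate 3 it was 0.82 and passed (adjusted p = 0.0363). It turned to -0.27 with library size alone and to -0.10 in log2(TPM + 1), neither of which passed. Exons of Ubxn6 on the other strand cover 48.6% of Chaf1a-201, and Ubxn6 had 5.85 ± 3.25 and 3.91 ± 1.11 CPM.

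Chaf1b (chr16:93883901-93906115, plus strand), the middle subunit, had 10.7, 10.3 and 9.87 CPM in control and 7.53, 6.63 and 8.78 CPM in EtP. The controls were close together and all above the EtP libraries, but the log2 fold change of -0.43 ± 0.25 did not pass (edgeR adjusted p = 0.213). It was -1.15 with library size alone (adjusted p = 0.00485), -0.68 among genes with at least 10 CPM in 3 libraries (adjusted p = 0.0364), and it was lower in log2(TPM + 1) too (limma adjusted p = 0.0171). That filter used CPM before TMM adjustment, and Chaf1b reached 10 CPM in its control libraries only. It thus entered that fit through the group where it is higher, and the call there adds no support. The log2 TPM ratio of Chaf1b to Chaf1a was -0.74, -1.59 and -1.90 in control and -2.40, -2.58 and -2.42 in EtP, a difference of -1.06 with no overlap (exact permutation p = 0.1, adjusted p = 0.24), and -0.73 without control replicate 1. Thus the subunit messages stood farther apart in every EtP library than in any control.

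**Figure D4:**
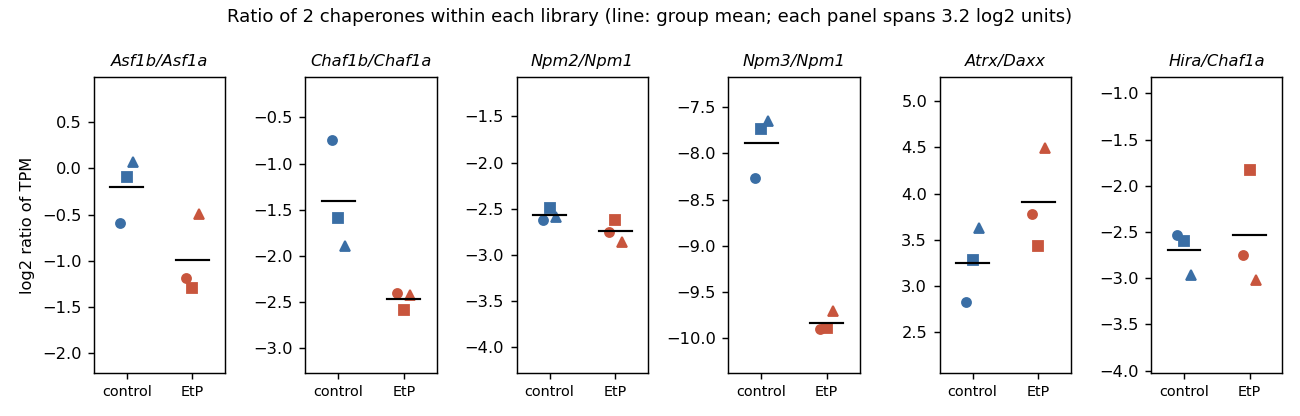
Log2 ratio of TPM of 2 chaperones within each library for 6 pairs, with lines at group means and 3.2 log2 units on each axis. The groups separate for Chaf1b/Chaf1a and Npm3/Npm1 and overlap for the other 4 pairs. Ratios of other gene pairs were not tested.

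Hira (chr16:18877037-18970309, plus strand), the subunit that places H3.3 in the male pronucleus, had the lowest mean TPM of the 10 in each group, although in EtP replicate 2 its 6.04 TPM stood above Npm3 (5.21) and Chaf1b (3.58). It had 2.70, 3.86 and 5.13 CPM in control and 4.83, 10.6 and 4.22 CPM in EtP, or 45 to 79 and 50 to 96 counts once rounded. EtP replicate 2 stood above the rest while the other EtP libraries lay within the control range. The log2 fold change of 0.74 ± 0.40 did not pass (edgeR adjusted p = 0.19) and was 0.26 without EtP replicate 2. The same-strand locus Gm28539 shares 65.9% of the bases of Hira-201 and took 36.2 counts in EtP replicate 3 and at most 5.26 in any other library; with it summed the value was 0.91 ± 0.35 (edgeR adjusted p = 0.0725). The log2 TPM ratio of Hira to Chaf1a was -2.70 ± 0.233 in control and -2.53 ± 0.621 in EtP (exact permutation p = 0.9), and the difference of 0.17 turned to -0.18 without EtP replicate 2.

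Daxx and Atrx, which together place H3.3 at repeats and telomeres, were both higher in the TMM fit. Atrx (chrX:105797615-105929403, minus strand), the chromatin remodeller of the pair, had 156, 192 and 208 CPM in control and 359, 305 and 408 CPM in EtP, without overlap. It was 1.93-fold higher (log2 fold change 0.95 ± 0.21, edgeR adjusted p = 0.00776) and passed without each library in turn, but not with library size alone (0.21, adjusted p = 0.453) or in log2(TPM + 1) (0.66, limma adjusted p = 0.08). In TPM, which leaves out the TMM factors, its groups overlapped, with 177 TPM in EtP replicate 2 and 206 TPM in control replicate 3.

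Daxx (chr17:33909414-33915590, plus strand), the H3.3 chaperone of the pair, had 7.62, 8.36 and 11.7 CPM in control and 20.0, 16.4 and 16.5 CPM in EtP, a 1.91-fold increase (log2 fold change 0.93 ± 0.26, edgeR adjusted p = 0.0198). Daxx no longer passed when control replicate 2 (adjusted p = 0.0611) or EtP replicate 1 (0.0844) was left out, among genes with at least 10 CPM in 3 libraries (0.0603) and with library size alone (0.18, adjusted p = 0.595). In TPM Daxx did not separate, at 15.3, 17.2 and 16.6 in control and 18.8, 16.3 and 14.3 in EtP. The log2 TPM ratio of Atrx to Daxx was 3.25 ± 0.405 and 3.91 ± 0.54 with overlap (exact permutation p = 0.2, adjusted p = 0.24). On rounded counts the ratio differed by -0.0021, so the TPM difference goes with the transcript lengths of these genes.

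The gene most like each of the 3 most abundant members in pattern was sought among 5970 tested genes that are no members, by the root mean square difference of centred log2 CPM over the 6 libraries. For Npm1 it was Skp1a (0.071), for Npm2 Cox7a2l (0.055) and for Asf1a Rraga (0.052). Skp1a had 1124 ± 418 CPM in control and 2659 ± 436 CPM in EtP, Cox7a2l 68.5 ± 26.1 and 125 ± 23.0 CPM, and Rraga 123 ± 16.9 and 217 ± 26.5 CPM.

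Other chaperones were taken from a list of 30 genes, 16 for H3-H4 and 14 for H2A-H2B, of which 28 were tested. In the TMM fit 8 were higher and 1 lower, beside 12.5% and 18.1% of all tested genes, and the median of their log2 fold changes was 0.51, beside -0.19. With library size alone 4 were higher (Nap1l4, Nasp, Ncl and Rbbp7) and 6 lower, beside 3.79% and 53.0% of all genes. Among the H3-H4 genes 6 of 16 were higher and 0 lower by edgeR, and among the 12 tested H2A-H2B genes 2 were higher and 1 lower.

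Nap1l4, a cytoplasmic H2A-H2B chaperone, rose from 268 ± 27.4 to 1199 ± 121 CPM (log2 fold change 2.16 ± 0.21, edgeR adjusted p = 4.9e-05). Nasp, which protects the soluble H3-H4 store, rose from 303 ± 69.6 to 1036 ± 63.0 CPM (1.78 ± 0.23, edgeR adjusted p = 0.00032). Rbbp7, a histone-binding WD40 protein, rose from 1725 ± 364 to 4397 ± 443 CPM, while its paralog Rbbp4, the smallest CAF-1 subunit, had 36.4 ± 1.22 and 29.1 ± 2.89 CPM and was not called (-0.32 ± 0.21, edgeR adjusted p = 0.263). Thus in the TMM fit no CAF-1 subunit was called.

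Spty2d1, the H3-H4 chaperone SPT2, rose by 1.30 ± 0.21 on the log2 scale, nucleolin (Ncl) by 1.41 ± 0.22 and Sart3, which also works in splicing, by 1.45 ± 0.26. Dnajc9, a co-chaperone of H3-H4, rose by 0.83 ± 0.21 and Supt6, an elongation factor, by 0.89 ± 0.27; both calls were lost without EtP replicate 1 or EtP replicate 2 (edgeR adjusted p = 0.0547 and 0.0581 for Dnajc9, 0.0627 and 0.0933 for Supt6), for Dnajc9 also without control replicate 2 (0.051) and for Supt6 without EtP replicate 3 (0.0676). Set was the 1 gene lower, from 7.29 ± 0.224 to 2.56 ± 0.48 CPM (-1.51 ± 0.29, edgeR adjusted p = 0.00316), and was picked out after its values were seen. The HIRA partners Ubn1, Ubn2 and Cabin1 were not called, with log2 fold changes of 0.60, 0.06 and -0.05. Ubn2 shares exon sequence with Hipk2 on the other strand, so its counts are uncertain. The same holds for Supt6, where Sdf2 on the other strand held 101.9% to 384% of its number of counts, and for Spty2d1, where Gm32031 on the other strand and Gm49504 together held 9.23% to 32.9%.

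Of 8 variant and linker histone genes, 4 were lower and 1 higher in the TMM fit, beside 18.1% and 12.5% of all tested genes, and 3 were not called. With library size alone 6 were lower and 0 higher by edgeR, beside 53.0% and 3.79%. H3f3a and H3f3b encode the same H3.3 protein. H3f3a had 833, 450 and 352 CPM in control and 130, 117 and 79.0 CPM in EtP, and fell by 2.33 ± 0.34 on the log2 scale (edgeR adjusted p = 0.000702). H3f3b had 1935, 1507 and 1378 CPM in control and 3575, 3511 and 3242 CPM in EtP, and rose by 1.10 ± 0.21 (edgeR adjusted p = 0.00321), a call lost with library size alone (0.38, adjusted p = 0.0917). Neither gene overlapped between groups. The 16 counted loci near-identical to H3f3a held 0.754% to 2.85% of its number of counts in any library, and those near-identical to H3f3b 0.078% to 0.125%. Gm17275 on the other strand, identical to H3f3a over 644 bases, is not among the counted genes. Its part in the H3f3a counts is unknown.

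The H2A.Z genes were lower. H2afv fell from 18.7 ± 3.83 to 3.56 ± 0.473 CPM (log2 fold change -2.40 ± 0.28, edgeR adjusted p = 0.000159) and H2afz from 62.6 ± 13.2 to 32.5 ± 2.28 CPM (-0.95 ± 0.23, edgeR adjusted p = 0.0108). The H2afz call was lost without control replicate 2 and without each EtP replicate (edgeR adjusted p = 0.0519 to 0.0626). Loci that share its sequence, mainly Tmcc1 on the other strand, held 10.9% to 53.3% of its number of counts, so its value is uncertain. H2afx, the variant phosphorylated at DNA breaks, fell by 1.43 ± 0.31 and was picked out after its values were seen. The egg's linker histone H1foo (0.48 ± 0.26), the centromeric Cenpa (-0.34 ± 0.23) and H2afy (-0.24 ± 0.32) were not called.

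**Figure D5:**
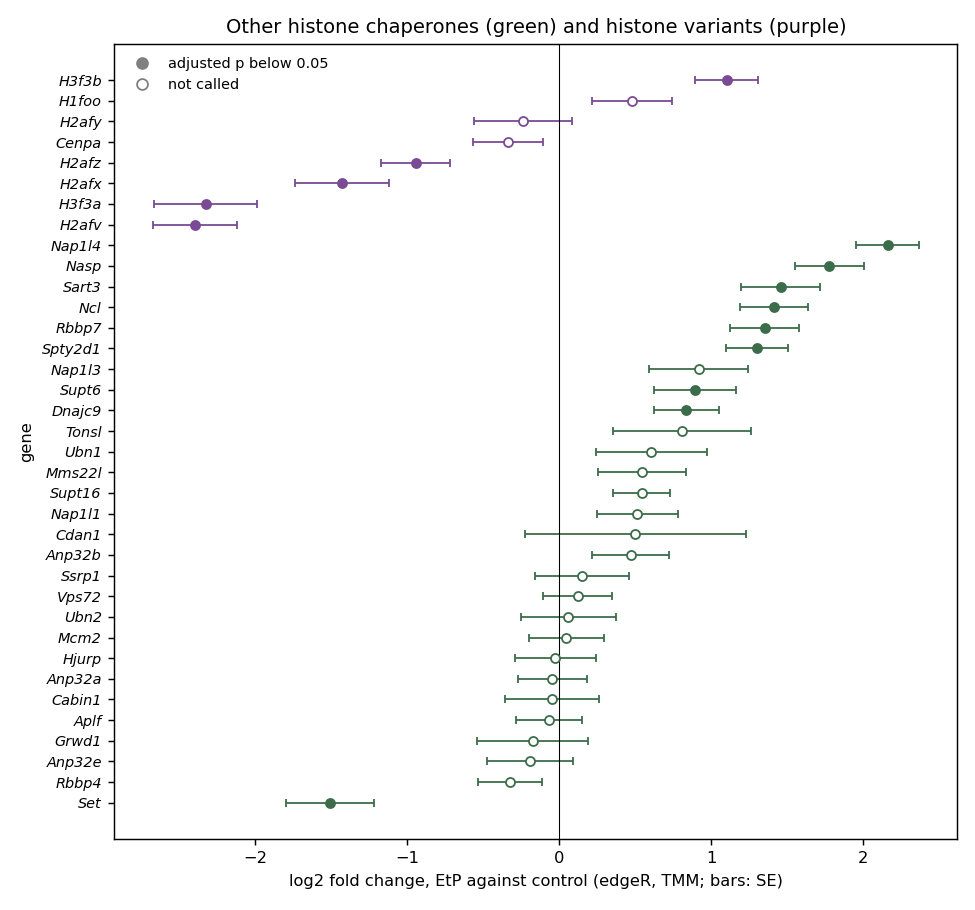
Log2 fold change with its SE, EtP against control in the edgeR fit with TMM scaling, of 28 other histone chaperones (green) and 8 histone variant and linker genes (purple); filled points have an adjusted p below 0.05. Nap1l4 and Nasp lie highest, and H2afv and H3f3a lowest.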

How the data were processed

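Polyadenylated RNA was amplified by Smart-seq2 and sequenced as paired reads without strand, per the labels' protocols. Per the submitters' processing notes, cutadapt 1.16 and STAR were used on mm10; which program made the estimates is not given in the sources used here. Expected counts were deposited as estimates per gene, fractional in 10.6% to 16.0% of entries (tolerance 0.005), and were rounded. TPM was computed by the authors before deposit. The deposited transcript length is a mean in bases per gene and library.

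The contrast of 3 EtP and 3 control libraries was fitted in edgeR 4.0.16 (R 4.3.3; filterByExpr, TMM factors of 0.738 to 1.39, robust quasi-likelihood fit, Benjamini-Hochberg over all tested genes, two-sided), checked on simulated counts. The simulated counts held balanced changes in few genes, so that check does not bear on the choice of scaling. Standard errors were derived from the fold change and the F statistic. TPM used limma 3.58.1; DESeq2 1.42.0 was an alternative. Single values used exact two-sided permutation tests. Near-identical loci were found with blastn 2.17.0 in GENCODE M21 transcripts, which also gave positions; its assembly is mm10. Other named genes were the 8 (chaperones) and 4 (variants) with the smallest p and at least 5 CPM. Members and lists were chosen with earlier results of these data known. Summing members with loci of shared sequence is an alternative chosen after seeing the data. Plots come from matplotlib 3.10.9.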

Additional observations from a re-analysis of the deposited data

How the results depend on the processing

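Relative direction depended mostly on scaling. With library size alone 545 genes were higher and 7617 lower; 0 members were higher (edgeR; 1 at an unadjusted p below 0.05) and 2 lower, other chaperones gave 4 and 6, and 0 histone variants were higher (edgeR). In log2(TPM + 1) all genes gave 694 higher and 6165 lower, members 2 and 2 and other chaperones 4 and 4, and in log2(TPM + 0.1) 698 and 6191, 2 and 2, and 4 and 4. Keeping genes that reach 10 CPM in 3 libraries, all genes gave 978 and 1454 and members 3 and 1 of 8. The 1 lower member, Chaf1b, reached this level in control libraries only. Signs turned for Hira (-0.017), Asf1b (-0.46) and Chaf1a (-0.27) with library size alone, and for Asf1b (-0.40) and Chaf1a (-0.10) in log2(TPM + 1) and also in log2(TPM + 0.1) (-0.40 and -0.098). On rounded counts the log2 ratio Npm2/Npm1 moved to -0.40 and Atrx/Daxx turned to -0.0021. Leaving out each library in turn gave 1096 to 2637 genes higher and 1659 to 2887 lower, 2 to 5 members higher, 6 to 11 other chaperones higher and 3 to 4 variants lower. Why single libraries moved these counts was not tested. The labels do not say if the replicate numbers pair the libraries. Deviations of same-numbered libraries correlated by 0.161, 0.0043 and 0.328 for numbers 1 to 3. Libraries numbered 1 and 3 correlated best with their own number, and those numbered 2 did not. Pairing therefore stays unknown. With the replicate block 2295 genes were higher and 3022 lower, 5 members were higher and 0 lower by edgeR, other chaperones gave 9 and 1 and variants 1 and 4. Without EtP replicate 2 the log2 ratio Hira/Chaf1a turned to -0.18. Hira, Npm3 and Chaf1b rest on 35.8 to 195 estimated counts per library, and Daxx, which was called higher, on 127 to 207. Of the genes called lower, Set rests on 22 to 32 estimated counts in the EtP libraries, H2afx on 15.2 to 29.4 and H2afv on 33 to 41. What this depth does to their tests was not tested.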
